A study of Homo sapiens with 3 samples.

Results

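The transforming growth factor-β (TGF-β) pathway was examined through 10 genes, taken by symbol from the 44591 genes of the deposited expression table. They comprise 3 ligand genes (*TGFB1*, *TGFB2* and *INHBA*), 2 receptor genes (*TGFBR1* and *TGFBR2*), 3 SMAD genes (*SMAD2*, *SMAD3* and *SMAD7*) and 2 target genes (*ID1* and *ID3*). All 10 were found, each in 1 row, and each had a mean over the libraries of 1 RPKM or more, the filter used throughout. RPKM counts reads per kilobase of gene, scaled to the number of reads in the library. RNA came from Caki-1, an established human clear cell renal cell carcinoma line, 48 h after transfection with a non-targeting siRNA (si-Control) or an siRNA that targets RBCK1, of which there were 2 (si-RBCK1 #1 and si-RBCK1 #2, labelled si-HOIL-1#1 and si-HOIL-1#2). RBCK1, also called HOIL-1, is a subunit of the ubiquitin ligase complex that builds linear ubiquitin chains. The study used the comparison to ask which transcripts and pathways respond to RBCK1 depletion. There was 1 library per condition, 3 in all, so no difference has a replicate check and no p-value was computed. As distinct reagents, the siRNAs are kept apart in all values, and both are compared with the same si-Control library.

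TGF-β family ligands are secreted dimers that bind a type II receptor, which then phosphorylates a type I receptor. TGF-β and activin receptors phosphorylate SMAD2 and SMAD3, whereas BMP receptors phosphorylate SMAD1, SMAD5 and SMAD9, and both classes enter the nucleus with SMAD4. Inhibitory SMADs, among them SMAD7, are induced by the pathway and switch its receptors off. In renal epithelium the pathway is known for growth arrest, matrix production and the epithelial-mesenchymal transition, and in renal carcinoma cells it has been tied to invasion.

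The siRNA sense strands are shown because every result below rests on them, and capitals mark the bases that match positions 2 to 8 of the guide strand, the seed.
si-RBCK1 #1: ggtgcaccttcATCAACAa
si-RBCK1 #2: ggattaccagcGATTTCTa
Both 19-base sequences were found in full in the longest coding *RBCK1* transcript of GENCODE v29, in its coding part, and in the longest coding transcript of 0 of the 10 genes. *RBCK1* itself was at 33.3 RPKM in the control (5294 reads), 9.97 RPKM after si-RBCK1 #1 (1735 reads) and 12.3 RPKM after si-RBCK1 #2 (1917 reads). By reads it was at 29.9% and 36.8% of si-Control.

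The libraries had been scaled by 36926834 (si-Control), 40442939 (si-RBCK1 #1) and 36344428 (si-RBCK1 #2) reads, totals found from the steps between low RPKM values. For 12389 of the 12403 genes whose mean reached 1 RPKM, the values gave whole reads, the smallest that the values allow. The 95% intervals given below (exact Clopper-Pearson for ratios, exact Poisson for levels) are on these reads and cover counting error only, not the difference between cultures. Renal markers *PAX8* (82.5 to 124 RPKM), *KRT8* and *KRT18* were present, while *PAX2* (at most 0.06 RPKM) and *EPCAM* (at most 0.56 RPKM) were close to 0. None of 5 leukocyte and 5 endothelial markers reached the filter, with summed levels of 0.11 to 0.41 RPKM and 0.07 to 0.09 RPKM. Of 5 fibroblast markers, only *COL1A1* passed it (3.21 to 4.68 RPKM), and the sum was 4.12 to 5.72 RPKM. In bulk RNA, fewer cells of a type and less RNA per cell cannot be told apart.

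In both si-RBCK1 libraries the 3 ligand transcripts were lower than with si-Control, and the targets *ID1* and *ID3* were higher. Receptors and receptor-activated SMADs were split, with *TGFBR1* and *SMAD2* lower and *TGFBR2*, *SMAD3* and the inhibitory *SMAD7* higher. With each siRNA, set against the shared control library, 5 of the 10 genes were higher and 5 lower. Over all 12403 genes, 51.5% were higher and 48.4% lower with si-RBCK1 #1, and 53.5% were higher and 46.4% lower with si-RBCK1 #2. With 1 RPKM added before taking log2, a scale that makes differences of low genes look smaller, *INHBA*, *ID1* and *ID3* (3 of 10) differed at least 2-fold in each library. Of all 12403 genes, 6.18% did so with si-RBCK1 #1, 4.76% with si-RBCK1 #2 and 2.87% with both in the same direction. By direction, at least 2-fold higher were 2.91% of genes with si-RBCK1 #1, 2.5% with si-RBCK1 #2 and 1.46% with both, beside 2 of the 10. At least 2-fold lower were 3.27%, 2.27% and 1.41%, beside 1 of the 10. The median log2 ratio of the 10 genes was 0.07 with si-RBCK1 #1 and -0.08 with si-RBCK1 #2, beside 0.02 and 0.03 over all genes. The 10 genes were chosen with earlier results of these data known. Their counts beside all genes therefore describe these libraries and are not a test of the pathway.

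Among ligands, *INHBA* encodes the βA subunit, whose dimer is activin A. It maps to chromosome 7, 41724712 to 41742706, minus strand (hg19 here and below, the build named in the submitters' processing notes). *INHBA* stood at 176 RPKM in the control (39463 reads), 85.4 RPKM after si-RBCK1 #1 (20951 reads) and 73.1 RPKM after si-RBCK1 #2 (16108 reads). The control was thus the high library, and the siRNA libraries lay closer to each other. On the log2(RPKM + 1) scale the ratios to si-Control were -1.04 and -1.26. By reads, the *INHBA* level was 48.5% of the control in the si-RBCK1 #1 library (-1.04 in log2, interval -1.07 to -1.02) and 41.5% in the si-RBCK1 #2 library (-1.27 in log2, -1.30 to -1.24). Its place among the 12403 genes by level went from 267 with si-Control to 725 and 837. A log2 ratio at least as low was found for 365 genes with si-RBCK1 #1 (2.94%) and for 122 genes with si-RBCK1 #2 (0.984%). The antisense lncRNA gene *INHBA-AS1* overlaps it at 1.18, 0.705 and 0.827 RPKM in the same library order, and whether reads were counted by strand is not given in the sources used here.

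*TGFB1*, which encodes the most widely expressed TGF-β isoform, maps to chromosome 19, 41836228 to 41859788, minus strand. It was at 12.97 RPKM in the control (1313 reads), 6.83 RPKM after si-RBCK1 #1 (757 reads) and 8.34 RPKM after si-RBCK1 #2 (831 reads). Both siRNA libraries were lower than the control, si-RBCK1 #1 more so. The log2 ratios on the RPKM + 1 scale were -0.84 and -0.58, and by reads *TGFB1* was at 52.6% and 64.3% of si-Control. The ratio with si-RBCK1 #2 lies next to the 1.5-fold limit and passed it with 0.1 RPKM added (-0.63) and with libraries scaled to equal medians (-0.63) or equal totals (-0.61).

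*TGFB2*, the least abundant of the 10, encodes an isoform that needs the co-receptor betaglycan for strong binding to the type II receptor. It maps to chromosome 1, 218518626 to 218617961, plus strand. Its values were 3.41, 2.74 and 2.02 RPKM (756, 666 and 441 reads) in the order si-Control, si-RBCK1 #1, si-RBCK1 #2. Here si-RBCK1 #2 was the lower library, the reverse of *TGFB1*. By reads the log2 ratios were -0.31 (interval -0.47 to -0.16) and -0.75 (-0.93 to -0.58). On the RPKM + 1 scale they were -0.24 and -0.55. Summed over *TGFB1*, *TGFB2* and *INHBA*, ligand transcripts came to 193 RPKM in the control, 95 RPKM after si-RBCK1 #1 and 83.5 RPKM after si-RBCK1 #2. *INHBA* held 91.5%, 89.9% and 87.6% of these sums.

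The type I receptor gene *TGFBR1* (chromosome 9, 101867371 to 101916474, plus strand) encodes the kinase that phosphorylates SMAD2 and SMAD3. It was at 10.5 RPKM in the control (2536 reads), 7.65 RPKM after si-RBCK1 #1 (2019 reads) and 8.42 RPKM after si-RBCK1 #2 (1997 reads). It was thus lower by a smaller step than *INHBA*, at 72.7% and 80.0% of si-Control by reads. The type II receptor gene *TGFBR2* (chromosome 3, 30647994 to 30735634, plus strand) encodes the kinase that binds the ligand first. It was at 14.4, 23.9 and 15.9 RPKM (1252, 2275 and 1360 reads) in the same library order. Only the si-RBCK1 #1 library stood clearly above the control. By reads the log2 ratios of *TGFBR2* were 0.73 (interval 0.63 to 0.83) and 0.14 (0.03 to 0.25), and between the siRNA libraries (#2 over #1) the ratio was -0.59 (-0.69 to -0.49). On the RPKM + 1 scale the *TGFBR2* ratio with si-RBCK1 #2 was 0.13. It was 0.09 with libraries scaled to equal medians and 0.10 with equal totals, and the intervals do not cover this choice. The reads of *TGFBR2* imply a length of 2352 nt, while its exons in GENCODE v29 cover 4704 nt, so that the true reads may be higher and the intervals narrower. The level of *TGFBR2* relative to *TGFBR1* was 1.37-fold with si-Control, 3.13-fold with si-RBCK1 #1 and 1.89-fold with si-RBCK1 #2.

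*SMAD2* and *SMAD3* encode the SMADs that carry TGF-β and activin signals, SMAD3 binding DNA directly and the main SMAD2 form only with partners. *SMAD2* (chromosome 18, 45359466 to 45457517, minus strand) was at 8.91 RPKM in the control (3546 reads), 6.52 RPKM after si-RBCK1 #1 (2842 reads) and 6.02 RPKM after si-RBCK1 #2 (2359 reads). *SMAD3* (chromosome 15, 67358195 to 67487533, plus strand) was at 18.2, 29.03 and 33.2 RPKM (4453, 7776 and 7992 reads). The paralogs therefore differed from si-Control in opposite directions in both libraries. By reads *SMAD2* had log2 ratios of -0.45 (interval -0.52 to -0.38) and -0.57 (-0.64 to -0.49), and *SMAD3* had 0.67 (0.62 to 0.73) and 0.87 (0.81 to 0.92). *SMAD3* exceeded *SMAD2* 2.04-fold in RPKM with si-Control, 4.45-fold with si-RBCK1 #1 and 5.51-fold with si-RBCK1 #2. *SMAD7*, the inhibitory SMAD that recruits ubiquitin ligases to the type I receptor, maps to chromosome 18, 46446223 to 46477081, minus strand. It was at 7.71, 10.3 and 10.9 RPKM (981, 1435 and 1370 reads), which is 134% and 142% of si-Control by reads. At a limit of 1.5-fold on the RPKM + 1 scale, *SMAD3* joined *INHBA*, *ID1* and *ID3* with both siRNAs, 4 of 10 genes, beside 13.7% of all genes in the same direction with both. With 5 RPKM added, *SMAD3* (0.55) and *TGFBR2* (0.57) were under it with si-RBCK1 #1. With si-RBCK1 #1 alone, *TGFB1* and *TGFBR2* passed it too, 6 of 10 genes beside 23.7% of all genes, and with si-RBCK1 #2 no further gene did, 4 of 10 beside 20.6%. By direction the shares of all genes at this limit were 12.1% higher and 11.6% lower with si-RBCK1 #1, 11.3% and 9.32% with si-RBCK1 #2, and 7.47% and 6.24% with both.

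The ID proteins lack a DNA-binding part and block basic helix-loop-helix factors by pairing with them, and *ID1* and *ID3* are best known as genes induced by BMP through SMAD1 and SMAD5. *ID1* (chromosome 20, 30193086 to 30194318, plus strand) was at 23.9 RPKM in the control (1090 reads), 64.0 RPKM after si-RBCK1 #1 (3190 reads) and 62.0 RPKM after si-RBCK1 #2 (2780 reads). Both siRNA libraries were far above the control and close to each other. By reads *ID1* was 2.67-fold higher with si-RBCK1 #1 (1.42 in log2, interval 1.32 to 1.52) and 2.59-fold higher with si-RBCK1 #2 (1.37, 1.27 to 1.48). The ratio of the siRNA libraries to each other was -0.04 (#2 over #1, log2 of reads), with an interval of -0.12 to 0.03. By level, its place among the 12403 genes went from 2770 to 997 and 1017.

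*ID3* (chromosome 1, 23884421 to 23886285, minus strand) was at 17.8, 57.5 and 37.7 RPKM (813, 2883 and 1697 reads) in the order si-Control, si-RBCK1 #1, si-RBCK1 #2. Here the siRNA libraries were apart from each other, with si-RBCK1 #2 in between. By reads *ID3* was 3.24-fold higher with si-RBCK1 #1 (1.70 in log2, interval 1.58 to 1.81) and 2.12-fold higher with si-RBCK1 #2 (1.08, 0.96 to 1.21). Its log2 ratio of si-RBCK1 #2 over si-RBCK1 #1 was -0.61 (-0.70 to -0.52). On the RPKM + 1 scale the ratios to si-Control were 1.64 and 1.04, and the second was just under 2-fold with libraries scaled to equal medians (0.99) or with 5 RPKM added (0.91). A log2 ratio at least as high as that of *ID3* was found for 63 genes with si-RBCK1 #1 (0.508%), and one at least as high as that of *ID1* for 107 (0.863%). With si-RBCK1 #2 the numbers were 266 (2.14%) and 115 (0.927%). The summed level of *ID1* and *ID3* was 41.7 RPKM in the control, 122 RPKM after si-RBCK1 #1 and 99.7 RPKM after si-RBCK1 #2. That sum lay under the summed ligand transcripts in the control and above them in both siRNA libraries.

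The order of levels among the 10 genes also differed between libraries. With si-Control it ran *INHBA*, *ID1*, *SMAD3*, *ID3*, *TGFBR2*, *TGFB1*, *TGFBR1*, *SMAD2*, *SMAD7*, *TGFB2*, and the Poisson intervals of *SMAD3* and *ID3*, and of *TGFBR2* and *TGFB1*, overlapped. In both si-RBCK1 libraries it ran *INHBA*, *ID1*, *ID3*, *SMAD3*, *TGFBR2*, *SMAD7*, *TGFBR1*, *TGFB1*, *SMAD2*, *TGFB2*. There the intervals of *TGFBR1* and *TGFB1* overlapped, as did those of *TGFB1* and *SMAD2* with si-RBCK1 #1. Overlap of separate intervals does not compare the levels directly. *INHBA* stood 7.36-fold above *ID1* with si-Control and 1.34-fold and 1.18-fold above it with the siRNAs.

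Promoters of the 3 genes past 2-fold are shown because *ID1* and *ID3* were higher together while *INHBA* was lower. Each is the 250 bases before the RefSeq start (GRCh38.p14), written 5′ to 3′ on the gene's strand, and capitals mark CCAAT and TATAAA on either strand.
ID1 (chr20:31605039-31605288, plus strand): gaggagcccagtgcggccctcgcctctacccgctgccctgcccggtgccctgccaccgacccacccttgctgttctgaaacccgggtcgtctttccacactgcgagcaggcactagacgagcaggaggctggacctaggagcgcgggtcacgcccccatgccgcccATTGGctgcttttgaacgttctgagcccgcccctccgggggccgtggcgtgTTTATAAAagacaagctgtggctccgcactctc
ID3 (chr1:23559502-23559751, minus strand): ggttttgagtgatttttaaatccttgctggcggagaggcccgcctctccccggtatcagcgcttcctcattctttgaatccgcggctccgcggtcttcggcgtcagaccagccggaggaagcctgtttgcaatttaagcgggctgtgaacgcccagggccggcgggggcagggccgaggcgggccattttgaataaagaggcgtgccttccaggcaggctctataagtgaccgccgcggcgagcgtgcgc
INHBA (chr7:41703091-41703340, minus strand): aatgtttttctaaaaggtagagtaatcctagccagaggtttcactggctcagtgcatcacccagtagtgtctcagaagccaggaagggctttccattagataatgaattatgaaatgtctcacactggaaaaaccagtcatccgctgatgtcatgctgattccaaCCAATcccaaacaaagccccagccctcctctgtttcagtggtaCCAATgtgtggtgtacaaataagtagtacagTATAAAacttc
In *ID1*, CCAAT on the reverse strand begins 84 bases before the start, and TATAAA on both strands, with overlapping letters, begins 33 and 31 bases before it. In *INHBA*, CCAAT begins 85 and 42 bases and TATAAA 11 bases before the start. Of 35116 RefSeq windows of the same length, 32.0% hold CCAAT and 10.7% hold TATAAA. The letters CAGACA (13.6% of windows), letters of the CAGA box bound by SMAD3 and SMAD4, GTCTAGAC (0.182%), GGCGCC (16.4%) and the AP-1 site TGANTCA (6.57%) were searched on both strands and are not in these 3 windows. The BMP-responsive region known for *ID1* lies further upstream than this window.

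Seed matches were looked up in the longest coding GENCODE v29 transcript of each gene, since siRNAs can lower other transcripts through the seed. A match to the seed of si-RBCK1 #1 (ATCAACA) is held by 23.8% of 10568 genes and a match to that of si-RBCK1 #2 (GATTTCT) by 29.2%. *INHBA*, the gene past 2-fold in the lower direction, has 0 matches for si-RBCK1 #1 and 1 in its coding part for si-RBCK1 #2. *TGFB1* has 0 for each. *SMAD2* has 2 for each siRNA in its 3′ UTR, in a transcript of 34526 nt that is longer than the 10775 nt implied by its reads. *TGFBR1* has 2 for si-RBCK1 #2 in its 3′ UTR, and *TGFB2* has 1 for si-RBCK1 #2 in its 5′ UTR. Among higher genes, *TGFBR2* has 1 for si-RBCK1 #1, and *SMAD3* and *ID1* have 1 each for si-RBCK1 #2, all in the 3′ UTR, while *SMAD7* and *ID3* have 0. The part of seed matches in the values was not tested.

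A further 100 genes of the pathway, on 9 lists written from general knowledge, were placed beside the 10. The lists too were chosen with earlier results of these data known. Of the 100 genes, 64 passed the filter. Counts, medians and the log2 ratios in parentheses for these genes are on the RPKM + 1 scale, on which ratios of genes at a few RPKM are smaller than by reads. On that scale 0 of the 64 differed at least 2-fold with both siRNAs (2.87% of all genes did), and 0 did with si-RBCK1 #1 (6.18% of all genes). With si-RBCK1 #2 4 did (6.25%, beside 4.76% of all genes), 2 higher (*GDF11* and *TAGLN*) and 2 lower, among them *KLF10*. By reads, *GDF11* and *TAGLN* were over 2-fold higher with both siRNAs, with log2 ratios of 1.23 and 1.60 for *GDF11* and 1.11 and 1.27 for *TAGLN*. Other genes, named after their values were seen, passed 2-fold by reads with 1 siRNA only. With si-RBCK1 #1 these were *ZFYVE9* (-1.03, and -0.59 with #2) and *BHLHE40* (1.00, and 0.32 with #2). With si-RBCK1 #2 they included *SNAI2* (-1.27, and -0.32 with #1) and *PTHLH* (-1.26, and 0.26 with #1). At 1.5-fold with both siRNAs on the RPKM + 1 scale, 3 were higher (4.69%, beside 7.47% of all genes) and 4 lower (6.25%, beside 6.24%). The median log2 ratios over the 64 genes were -0.12 and -0.03, beside 0.02 and 0.03 over all genes. Of the 64, 29 were higher with si-RBCK1 #1 (45.3%, beside 51.5% of all genes) and 30 with si-RBCK1 #2 (46.9%, beside 53.5%). Lower were 48.4% and 46.4% of all genes. These all-gene values are the background for the counts and medians of each list below.

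Other ligands were few. Of 10 further TGF-β and activin family ligands, only *GDF11*, which signals through activin receptors, passed the filter, at 1.01 RPKM in the control (177 reads), 2.37 RPKM after si-RBCK1 #1 (455 reads) and 3.06 RPKM after si-RBCK1 #2 (528 reads). Its log2 ratios on the RPKM + 1 scale were 0.75 and 1.01, opposite to those of the 3 ligands above. *INHBE* and *TGFB3*, on the same list and named after their values were seen, missed the filter. *INHBE* was at 1.27, 0.35 and 0.28 RPKM (116, 35 and 25 reads) in the same library order. By reads its log2 ratios were -1.86 (interval -2.45 to -1.30) and -2.19 (-2.88 to -1.56), lower as the 3 ligands above were. *TGFB3*, at most 0.31 RPKM (12, 49 and 27 reads), was higher by reads, with log2 ratios of 1.90 and 1.19. *INHA* and *INHBB*, whose products can each pair with the βA subunit, were at most 0.13 RPKM. Of 10 BMP list genes 3 passed, and none was past 1.5-fold with both on the RPKM + 1 scale. *BMP1*, a protease named with the BMPs that processes matrix and latent TGF-β complexes, was at 12.5, 11.7 and 13.9 RPKM, and *GDF5* had log2 ratios of 0.47 and 0.45 on that scale and 0.80 and 0.77 by reads, past 1.5-fold with both.

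Of 12 other receptors and co-receptors, 6 passed the filter, 3 higher and 3 lower with si-RBCK1 #1 and 2 higher and 4 lower with si-RBCK1 #2, and none was past 1.5-fold on the RPKM + 1 scale. By reads *ACVR2A*, an activin type II receptor gene named after its values were seen, was past it with si-RBCK1 #1 (log2 ratio 0.65) and had -0.43 with si-RBCK1 #2. *TGFBR3*, the betaglycan gene, and *BMPR1B*, also named after their values were seen, missed the filter. *TGFBR3* was at 0.38, 0.95 and 0.80 RPKM (96, 261 and 198 reads). By reads it was over 2-fold higher with both siRNAs, with log2 ratios of 1.31 (interval 0.97 to 1.66) and 1.07 (0.71 to 1.43). *BMPR1B* was lower, at 0.53, 0.27 and 0.42 RPKM (117, 64 and 91 reads). *ENG*, which encodes the co-receptor endoglin, was the highest at 33.3, 43.9 and 41.5 RPKM (log2 ratios 0.39 and 0.31). *ACVR1*, encoding a type I receptor of BMPs and activins, was at 15.1, 11.1 and 10.1 RPKM (-0.41 and -0.54), *BMPR2* had -0.27 and -0.23, and *ACVR1B*, the activin type I receptor gene, had 0.12 with both. All 5 further SMAD genes passed, with medians of 0.06 in each library. *SMAD5* was at 13.7, 14.3 and 14.4 RPKM, the inhibitory *SMAD6* had log2 ratios of 0.41 and 0.55, and *SMAD4* had 0.23 and 0.13. *SMAD9* (-0.20 and -0.26) and *SMAD1* (-0.13 and -0.37) were lower.

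Of 11 genes that store or activate the ligand, 9 passed, 3 higher and 6 lower in each library, with medians of -0.23 and -0.09. *FURIN*, the protease that cleaves TGF-β precursors, was at 13.5, 25.3 and 20.6 RPKM, log2 ratios of 0.86 and 0.58. *LTBP4* and *LTBP3*, which encode proteins that hold latent TGF-β in the matrix, were lower mainly with si-RBCK1 #1. *LTBP4* was at 59.8, 35.8 and 54.0 RPKM (-0.72 and -0.15), and *LTBP3* at 12.2, 7.24 and 11.8 RPKM (-0.68 and -0.05). The integrin gene *ITGAV*, whose product activates latent TGF-β, was at 93.2, 77.7 and 65.7 RPKM (-0.26 and -0.50), its partner genes *ITGB6* had -0.23 and -0.38 and *ITGB8* 0.11 and 0.51, and *THBS1* was at 45.3, 36.0 and 42.3 RPKM (-0.32 and -0.09). Of 9 antagonist genes only *FSTL3*, encoding a secreted binder of activin, passed, at 23.5, 13.1 and 15.6 RPKM (-0.79 and -0.56), lower as *INHBA* was.

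SMAD regulators numbered 20, of which 19 passed, with 6 higher and 13 lower with si-RBCK1 #1, 7 higher and 12 lower with si-RBCK1 #2, and medians of -0.22 and -0.04. *USP9X*, which encodes a deubiquitinase acting on SMAD4, was at 35.4, 19.7 and 23.1 RPKM (-0.82 and -0.60). *TGIF1*, encoding a SMAD corepressor, was at 46.9, 30.9 and 25.4 RPKM (-0.59 and -0.86). *PMEPA1*, a TGF-β-induced inhibitor of the pathway, was at 7.75, 12.9 and 11.8 RPKM (0.66 and 0.55), and the corepressor gene *SKI* had 0.38 and 0.51.

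Of 22 transcripts known to be raised by TGF-β, 20 passed the filter, 13 higher and 7 lower with si-RBCK1 #1 and 12 higher and 8 lower with si-RBCK1 #2. Medians were 0.36 and 0.09, and members lay on both sides of 0. *TAGLN*, encoding an actin-binding protein, was at 2.89, 6.23 and 6.96 RPKM (0.89 and 1.03), and *ANGPTL4*, encoding a secreted lipase inhibitor, at 17.9, 34.5 and 32.7 RPKM (0.91 and 0.84). *KLF10*, an early TGF-β response transcription factor gene, was at 76.9, 43.8 and 32.1 RPKM (-0.80 and -1.23), and the cytokine gene *IL11* at 6.82, 3.90 and 3.48 RPKM (-0.67 and -0.80). Of 8 transcripts known to be raised by BMP other than *ID1* and *ID3*, 5 passed, with medians of -0.20 and -0.23 and none past 1.5-fold on the RPKM + 1 scale. *HEY1* had -0.56 and -0.57 on that scale and -0.83 and -0.85 by reads, past 1.5-fold with both, and *SMAD6* was higher as given above. *ID2*, the paralog of *ID1* and *ID3*, named here after its values were seen, was at 14.6, 15.5 and 12.2 RPKM (0.09 and -0.23). *ID4* was at most 0.15 RPKM.

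Beside these values, 2 of the 6 renal markers that passed the filter were at least 2-fold higher with both siRNAs, beside 1.46% of all genes. They were *KRT8* (65.6, 172 and 238 RPKM) and *CDH6* (0.87, 3.53 and 2.86 RPKM), and *CDH6* passed the filter only through the siRNA libraries. *PAX8* was lower (log2 ratios -0.59 and -0.22). The part of these markers in the values of the 10 genes was not tested. With 1 control library, what is particular to that culture and what RBCK1 depletion did cannot be told apart.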

How the data were processed

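RNA-seq was performed on 3 Caki-1 libraries (1 per condition) made with ribosomal RNA removal and a directional kit and sequenced in pairs. The authors deposited 1 RPKM value per gene and library. The submitters' processing notes name hg19, FastQC, Trimmomatic, TopHat2 and HTSeq, and the annotation and counting options are not given in the sources used here. The deposited comparison (control and treated values, fold change, p-value, q-value) was not used. Samples were grouped by title.

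Log2 ratios were computed after adding 1 RPKM to each value, over genes whose mean reached 1 RPKM. Another scaling, pseudocounts of 0.1 and 5 RPKM, other filters and protein-coding genes alone were alternatives. 1 gene with an entry that is not a number was left out. Whole reads were searched with lengths up to 50000 nt and a tolerance of 0.002 reads, after library totals were taken from genes of up to 200 nt. The genes named are the 10 and *RBCK1*, list genes of at least 10 RPKM that encode ligands, receptors, SMADs, antagonists or storage proteins, in each list the 2 highest and 2 lowest genes of the same direction with both siRNAs, by the smaller of both ratios (applied to genes that passed the filter), and list genes past 2-fold with both siRNAs. Outside these rules, and apart from cell type markers, further list genes are named. They are *INHBE*, *TGFB3*, *INHA*, *INHBB*, *ID2*, *ID4*, *ACVR2A*, *TGFBR3*, *BMPR1B*, *ZFYVE9*, *BHLHE40*, *SNAI2* and *PTHLH*, added after their values were seen. The genes and lists were chosen with earlier results of these data known. The siRNA sequences came from the study's supplementary table, and promoters from RefSeq (GRCh38.p14), with no coordinates carried between builds. The values of 1 list gene are not reported here. The steps were tested on simulated data. Scripts ran in Python 3.11.15 with pandas 2.3.3, numpy 2.4.6, scipy 1.17.1 for intervals and matplotlib 3.10.9 for figures.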

Additional observations from a re-analysis of the deposited data

How the results depend on the processing

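Of 120 log2 ratios of the 10 genes under other pseudocounts and scalings, 0 changed sign, 98 stayed within the half-width of their counting interval and 22 moved further. With a pseudocount of 0.1 RPKM, 3 genes were at least 1.5-fold lower with si-RBCK1 #2 and 2 with both siRNAs (1 and 1 as reported), and 2 further pathway genes were at least 2-fold higher with both (0 as reported). With 5 RPKM, 1 of the 10 was at least 2-fold higher with si-RBCK1 #2 and 1 with both (2 and 2), and 2 were at least 1.5-fold higher with si-RBCK1 #1 (4) and 2 with both (3). With libraries scaled to equal medians, 1 was at least 2-fold higher with si-RBCK1 #2 and 1 with both, and 2 were at least 1.5-fold lower with si-RBCK1 #2 and 2 with both. With equal totals the last counts were also 2 and 2. With no filter, where genes near 0 RPKM also count, the median of the further TGF-β and activin ligands was -0.066 with si-RBCK1 #1 and -0.037 with si-RBCK1 #2 (0.75 and 1.01 from 1 gene), that of BMP ligands 0.014 with si-RBCK1 #1 (-0.08), that of antagonists 0 and 0.00026 (-0.79 and -0.56 from 1 gene) and that of transcripts raised by BMP 0.037 with si-RBCK1 #2 (-0.23). Medians with si-RBCK1 #1 also turned for transcripts raised by BMP with a filter of 5 RPKM (0.085, from -0.20) and for receptors with equal totals (-0.014, from 0.04). The share of all genes at least 2-fold higher with both siRNAs, 1.46%, was 2.79% with 0.1 RPKM, 0.532% with 5 RPKM and 0.408% with no filter, and the share lower, 1.41%, was 2.64%, 0.476% and 0.489%. Beyond what a pseudocount or filter does by construction, the cause was not tested. No paired analysis was possible because no condition has a second library, which also leaves no replicate to leave out. Depth limits *TGFB2* most (441 to 756 reads).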
